A study of Rattus norvegicus with 20 samples.

Results

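The genes described here encode proteins of the growth cone and of neurite outgrowth: Gap43, Basp1, Marcks, Stmn1, Stmn2, Stmn3, Sprr1a, Crmp1, Dpysl2 and Dpysl3. Their probes were found by gene symbol on a rat expression array, which gave 14 probes of 10 genes, out of 15352 named genes and 41012 probes that are not controls. In all, 12 probes matched by symbol. The Sprr1a probe was matched through the gene identifier in its description, and a second Gap43 probe through the gene name there.

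The study captured neurons of 2 kinds, labelled sprouting and non-sprouting, by laser from the cortex of aged rats after stroke. The animals were 2 yr old, and the labels name no strain. Both cohorts had a stroke, and the labels name no further treatment. 2 fluorescent forms of cholera toxin B, a tracer, were injected one after the other into the cortex beside the infarct, with the second given at day 21 in one cohort and at day 7 in another, and about 300 neurons of each kind were captured 7 days after that. Each cohort held 5 animals, and each animal gave both pools, which were set against each other on 2 arrays of opposite dye orientation, so that 20 arrays were read. On a forward array the sprouting pool was in the red channel (Cy5), and on a dye-swap array the non-sprouting pool was. All pools therefore came from an infarcted brain, and each cell type was compared only with the other of the same brain.

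Growth cones extend by adding membrane and by reorganising actin and microtubules. Gap43, Basp1 and Marcks are abundant protein kinase C substrates of the inner membrane face that bind calmodulin or phospholipid and act on cortical actin. Stathmins (Stmn1, Stmn2, Stmn3) bind tubulin dimers and promote microtubule turnover, whereas the collapsin response mediator proteins (Crmp1, Dpysl2, Dpysl3) bind tubulin and relay semaphorin signals. Sprr1a, a small proline-rich protein, is known as an injury-induced gene of peripheral neurons that regrow axons.

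The upstream promoter sequences of 2 members are shown, Stmn1 because its ratio had one sign in every animal, and Sprr1a because it is the injury-induced member. The ratio of Sprr1a had no common sign, as was so for most members. The 250 bases before each start site are given 5′ to 3′ on the gene's strand, from RefSeq (build GRCr8). Capitals mark GGGCGG (a GC box), CACGTG (an E-box), TGANTCA (an AP-1 motif) and TATAAA, each searched on both strands. Stmn1 lies on the plus strand at chr5:151964929-151965178, and Sprr1a on the minus strand at chr2:180752626-180752875.
Stmn1: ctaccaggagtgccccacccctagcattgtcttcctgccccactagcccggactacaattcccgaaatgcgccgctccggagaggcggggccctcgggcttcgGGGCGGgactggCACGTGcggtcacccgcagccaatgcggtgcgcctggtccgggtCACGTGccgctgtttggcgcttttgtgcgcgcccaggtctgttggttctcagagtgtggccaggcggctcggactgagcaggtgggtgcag
Sprr1a: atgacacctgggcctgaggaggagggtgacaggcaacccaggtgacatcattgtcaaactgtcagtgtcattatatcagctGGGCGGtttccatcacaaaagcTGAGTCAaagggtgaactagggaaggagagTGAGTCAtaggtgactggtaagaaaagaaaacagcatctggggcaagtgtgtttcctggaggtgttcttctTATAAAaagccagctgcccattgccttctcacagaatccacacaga
In the Stmn1 stretch CACGTG occurred 2 times and GGGCGG 1 time. The Sprr1a stretch held TGANTCA 2 times, both as TGAGTCA, with TATAAA and GGGCGG 1 time each, and no motif overlapped another. Among 33469 RefSeq promoters, the same 250-base window held CACGTG in 5.59%, TGANTCA in 6.34%, TATAAA in 12.9% and GGGCGG in 30.5%. Promoter entries were matched for 6 further stretches of 5 members, Basp1, Stmn3, Crmp1, Dpysl3 and Marcks, and the AP-1, E-box and TATA letters searched did not occur in those. A match describes letters in this window and says nothing of binding.

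Signal depth differed between arrays. Probes well above background made up 69.8% to 95.5% of the red channel and 20.8% to 95.2% of the green channel, and 15 to 392 spots per array were saturated. The correlation between an animal's forward and turned dye-swap ratios over all probes ranged from 0.0464 (day 21 replicate 4) to 0.890 (day 7 replicate 1). The labelled cell type was checked against marker genes. Of 7 neuronal markers, 5 to 7 were well above background in the sprouting pools of the day 21 animals, and all 7 in their non-sprouting pools and in every pool of the day 7 animals. Markers of other cells were present too: at day 21, 5 to 10 of 10 microglia and macrophage markers were well above background in the sprouting pools and 9 or 10 in the non-sprouting pools. At day 7 all 10 were in the sprouting pools and 9 or 10 in the non-sprouting pools. Of 7 oligodendrocyte markers, 4 to 7 were well above background in the day 21 sprouting pools and 6 or 7 in the non-sprouting pools. All 7 were in every day 7 pool. Of 7 astrocyte markers, 2 to 7 were in the sprouting and 6 or 7 in the non-sprouting pools at day 21. At day 7 these were 6 or 7 and 5 to 7. In such pools, fewer cells of a type and less RNA per cell cannot be told apart.

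All ratios below are log2 values of sprouting over non-sprouting neurons in the same animal, averaged over the 2 arrays of that animal. A value of 0 means equal signal. A probe was tested where 1 cell type's channel stood well above background in both dye orientations for 3 or more animals of the same day, and 12 of the 14 probes met this. The Crmp1 probe and the second Gap43 probe did not. In the fit over 34225 probes (limma, Benjamini-Hochberg adjustment), 0 of the 12 tested member probes passed an adjusted p of 0.05 at day 21 or at day 7, and the background was 0% of all probes on both days. At an unadjusted p under 0.05 stood 4 of 12 member probes at day 21, against 4.75% of all probes, and 1 of 12 at day 7, against 6.05%. The 4 were Gap43, Marcks and both probes of Stmn1, and the 1 was the brighter Stmn1 probe. In the mean of both days 4 of 12 did, against 6.43% of all probes. By the genes' brightest probes, 6 of 9 ratios were above 0 at day 21 (median 0.05) and 8 of 9 at day 7 (median 0.07). Among those above 0 at day 7 were Gap43, Stmn1 and Dpysl2, whose spots were saturated on 9, 7 and 7 of 10 day 7 arrays. Over all probes the medians were -0.0015 at day 21 and -0.0019 at day 7, with 49.1% above 0 at day 21 and 48.8% at day 7.

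**Figure D1:**
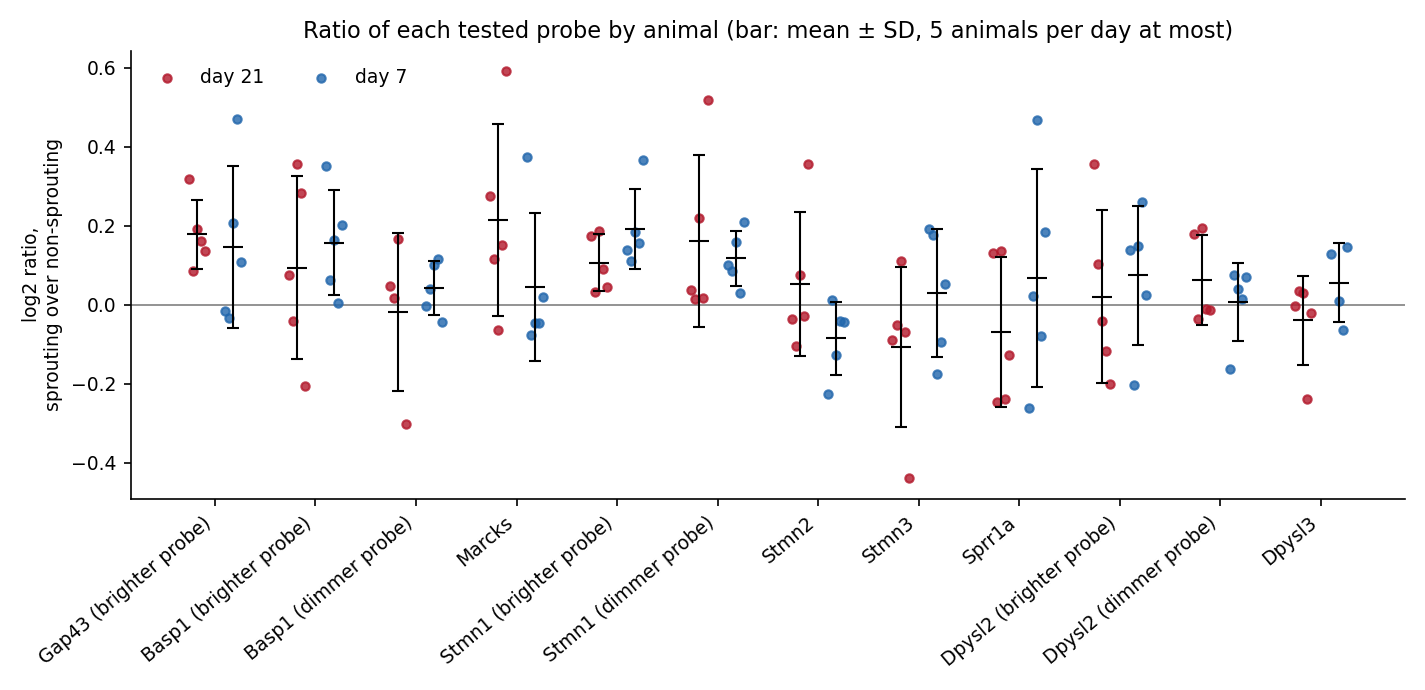
Log2 ratio of sprouting over non-sprouting neurons (vertical axis) for the 12 tested member probes, 1 point per animal, day 21 in red to the left of day 7 in blue, with mean and SD as bars. Both probes of Stmn1 lie above 0 in all 10 animals, and most other probes lie on both sides of 0. The brighter Stmn1 probe was saturated on 7 of 10 day 7 arrays.

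Among the membrane-associated kinase C substrates, Gap43 is the classical growth cone protein, measured here by probe A_42_P833045. The Gap43 ratio was 0.32, 0.08, 0.19, 0.16 and 0.14 in day 21 animals 1 to 5. In day 7 animals 1 to 5 the Gap43 ratio was -0.01, -0.03, 0.21, 0.47 and 0.11. All 5 day 21 animals were above 0, as were 3 of 5 day 7 animals, and the days overlapped. A ratio above 0 in all 5 animals was seen for 2.4% of probes at day 21 and for 4.86% at day 7. The mean was 0.18 ± 0.09 at day 21 and 0.15 ± 0.21 at day 7 (SD, n = 5 each), with adjusted p = 0.923 and 0.824 in limma. Without day 7 replicate 4 the day 7 mean was 0.07. Averaged over both days the ratio was 0.16 (SE 0.0476, a 1.12-fold difference, adjusted p = 0.703 in limma).

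The Gap43 values depended on the dye. The spot was saturated on 3 of 10 arrays at day 21 and 9 of 10 at day 7, in the red channel of 11 arrays and the green channel of 2. By cell type, the non-sprouting spot was saturated on 7 day 7 arrays and the sprouting spot on 3, so saturation was not balanced between the pools. At day 21 these were 2 and 1. The dye-swap arrays averaged 0.45 at day 7, against -0.16 on the forward arrays. At day 21 the dye-swap mean was 0.25 and the forward mean 0.10. The single example of day 7 replicate 1 shows the reading: on the forward array the red sprouting spot had a mean signal of 65211, saturated, and the green non-sprouting spot 57283, and on the swap the green sprouting spot had 32606 and the red non-sprouting spot 65217, saturated. With saturated spots set to missing the day 21 ratio was 0.16 over 3 animals, and at day 7 no animal had both arrays unsaturated. The second Gap43 probe, A_44_P271691, was well above background on 9 arrays in red and 3 in green and averaged 0.01 ± 0.10 at day 21 (SD, n = 5) and -0.02 ± 0.04 at day 7 (SD, n = 4), untested.

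Basp1, a myristoylated kinase C substrate, was measured by probe A_43_P12208 with no saturated spot. The Basp1 ratio was 0.08, -0.04, 0.36, 0.28 and -0.21 in the day 21 animals and 0.35, 0.06, 0.16, 0.01 and 0.20 in the day 7 animals. All 5 day 7 animals were above 0, and 3 of 5 day 21 animals were. The means were 0.09 ± 0.23 at day 21 and 0.16 ± 0.13 at day 7 (SD, n = 5 each, limma adjusted p = 0.924 and 0.837). The day 21 mean was 0.028 without replicate 3 and 0.17 without replicate 5. Both orientations had the same sign at day 7, with 0.18 on forward and 0.13 on swap arrays. A second probe under the Basp1 name, A_44_P660424, averaged -0.02 ± 0.20 at day 21 (SD, n = 4) and 0.04 ± 0.07 at day 7 (SD, n = 5), but its description names another predicted gene, so its identity is uncertain.

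Marcks, which shuttles between the membrane and the cytosol and crosslinks actin, was measured by probe A_44_P121167. The Marcks ratio was 0.28, 0.12, -0.06, 0.15 and 0.59 in the day 21 animals, and 0.37, -0.08, -0.04, -0.05 and 0.02 in the day 7 animals. In each cohort 1 animal stood highest, replicate 5 at day 21 and replicate 1 at day 7. The means were 0.21 ± 0.24 at day 21 and 0.04 ± 0.19 at day 7 (SD, n = 5 each, limma adjusted p = 0.923 and 0.955). Without replicate 5 the day 21 mean was 0.12, and without replicate 1 the day 7 mean was -0.04, so that each day's value rested in large part on 1 animal. The spot was not saturated on any array.

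Stmn1, the cytosolic stathmin, was above 0 in 10 of 10 animals by both of its probes. That pattern was held by 58 probes, or 0.169% of those that passed the filter. The count of the brighter probe rests in part on saturated spots. With those set to missing it had a value in 4 day 21 animals, all above 0, and in no day 7 animal. By the dimmer probe A_44_P401165, which was saturated on no array, the Stmn1 ratio was 0.04, 0.01, 0.22, 0.02 and 0.52 in the day 21 animals and 0.10, 0.09, 0.16, 0.03 and 0.21 in the day 7 animals. At day 21 replicate 5 was far above the others, and the mean without it was 0.07. The means were 0.16 ± 0.22 at day 21 and 0.12 ± 0.07 at day 7 (SD, n = 5 each, limma adjusted p = 0.923 and 0.841). All 10 day 7 arrays were above 0 and 7 of 10 day 21 arrays were, and the orientations gave 0.16 and 0.16 (forward and swap) at day 21 and 0.13 and 0.11 at day 7.

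By the brighter Stmn1 probe, A_43_P11845, the ratio was 0.18, 0.03, 0.19, 0.09 and 0.05 in the day 21 animals and 0.14, 0.11, 0.19, 0.16 and 0.37 in the day 7 animals. The means were 0.11 ± 0.07 at day 21 and 0.19 ± 0.10 at day 7 (SD, n = 5 each, limma adjusted p = 0.923 and 0.531). Over both days this probe averaged 0.15 (SE 0.0305), a 1.11-fold difference, with the lowest adjusted p of any member in a ratio (0.485 in limma). This spot was saturated on 1 of 10 arrays at day 21 and on 7 of 10 at day 7. At day 7 the non-sprouting spot was saturated on 6 arrays and the sprouting spot on 2. The probe's day 7 mean was -0.06 on forward arrays against 0.44 on dye-swap arrays. Under no background correction or with the scanner software's own log ratio it was above 0 in 9 of 10 animals, whereas the unsaturated probe stayed above 0 in all 10.

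**Figure D2:**
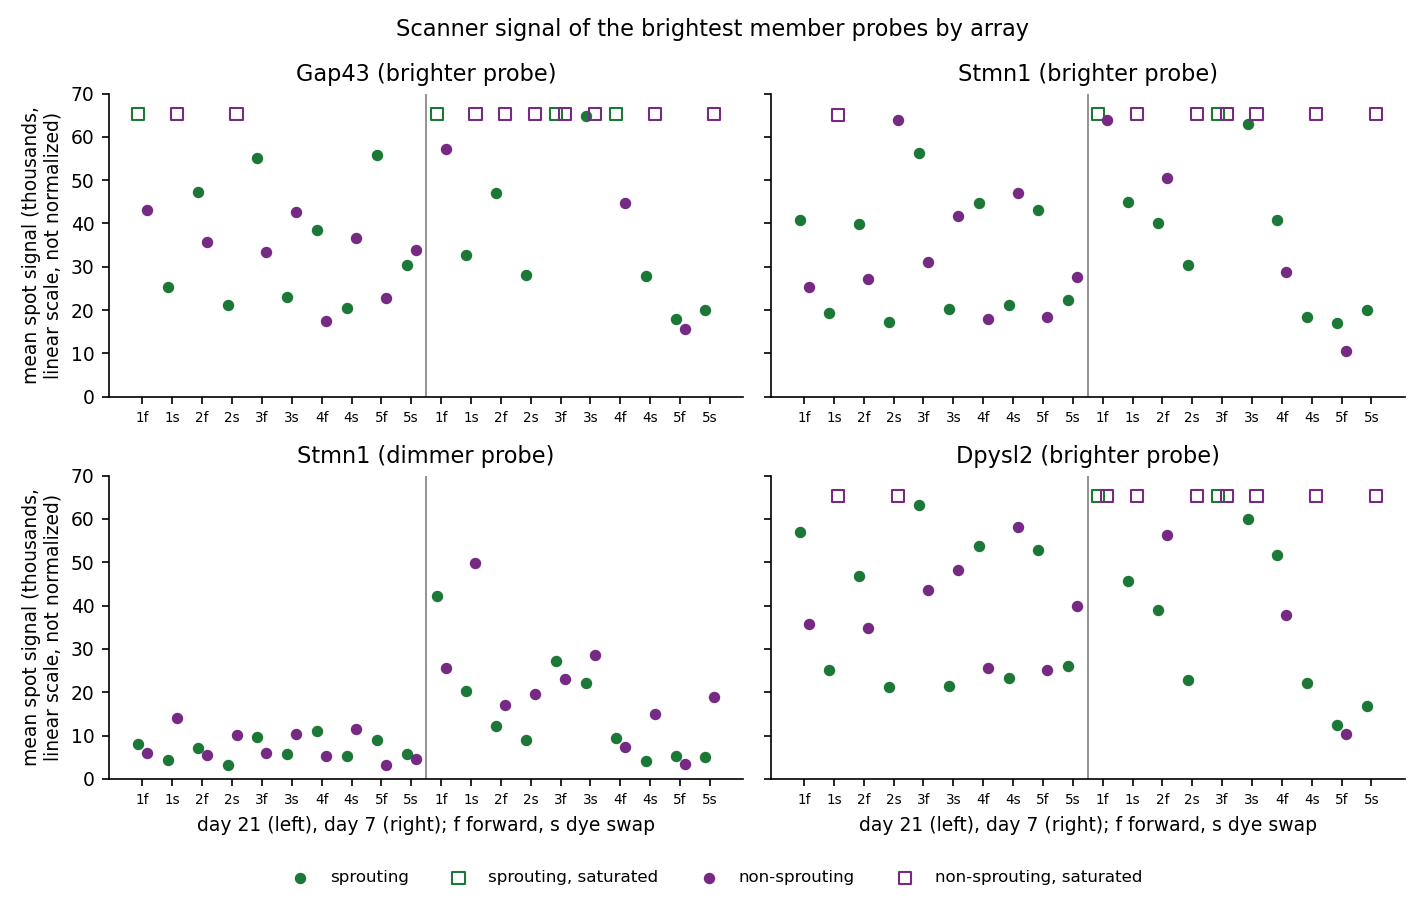
Mean spot signal before normalization (vertical axis, linear scale) on the 20 arrays (horizontal axis, day 21 left of day 7), sprouting pools in green and non-sprouting in purple, with open squares for saturated spots. Saturated squares crowd the day 7 side for Gap43 (9 of 10 arrays), the brighter Stmn1 probe (7) and the brighter Dpysl2 probe (7), and there are none for the dimmer Stmn1 probe.

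Stmn2, the membrane-anchored stathmin of growing axons, was saturated on no array. Its ratio was -0.03, -0.10, 0.08, -0.03 and 0.36 in the day 21 animals and -0.23, 0.01, -0.13, -0.04 and -0.04 in the day 7 animals. At day 7 1 of 10 arrays was above 0, and the mean was -0.09 ± 0.09, against 0.05 ± 0.18 at day 21 (SD, n = 5 each, limma adjusted p = 0.857 at day 7 and 0.946 at day 21). The day 21 mean without replicate 5 was -0.02. Stmn3, another neuronal stathmin, had ratios of -0.09, -0.05, 0.11, -0.07 and -0.44 in the day 21 animals and 0.19, 0.18, -0.18, -0.09 and 0.05 in the day 7 animals. It averaged -0.11 ± 0.20 at day 21 and 0.03 ± 0.16 at day 7 (SD, n = 5 each, limma adjusted p = 0.923 and 0.965), with animals on both sides of 0 on both days. The Stmn3 mean was -0.024 at day 21 without replicate 5 and -0.0093 at day 7 without replicate 1. It was saturated on 1 array at day 7.

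Sprr1a had a ratio of 0.13, -0.25, 0.14, -0.24 and -0.13 in the day 21 animals. The day 7 animals had -0.26, 0.02, 0.47, -0.08 and 0.18. Animals of both cohorts spread widely about 0 and overlapped, with means of -0.07 ± 0.19 at day 21 and 0.07 ± 0.28 at day 7 (SD, n = 5 each, limma adjusted p = 0.953 and 0.936). Without replicate 3 the day 7 mean was -0.03. The probe was well above background in the red channel of all 20 arrays and in the green channel of 17.

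The collapsin response mediators showed no common direction. Dpysl2, which binds tubulin heterodimers, had a brighter probe, A_44_P311647, with 0.36, 0.10, -0.04, -0.12 and -0.20 in the day 21 animals, and 0.14, -0.20, 0.15, 0.26 and 0.02 in the day 7 animals. Its means were 0.02 ± 0.22 at day 21 and 0.07 ± 0.18 at day 7 (SD, n = 5 each, limma adjusted p = 0.988 and 0.910), and the day 21 mean was -0.064 without replicate 1. After removal of the saturated spots the day 21 mean was -0.12 over 3 animals, none of them above 0, and at day 7 no animal had both arrays unsaturated. This spot was saturated on 2 of 10 arrays at day 21 and 7 of 10 at day 7. At day 7 the non-sprouting spot was saturated on 7 arrays and the sprouting spot on 2. The probe's day 7 mean was -0.20 on forward arrays and 0.35 on dye-swap arrays. The dimmer Dpysl2 probe, A_44_P271741, which was not saturated, averaged 0.06 ± 0.11 at day 21 and 0.01 ± 0.10 at day 7 (SD, n = 5 each). Dpysl3, another member of this family, had ratios of -0.0020, 0.03, 0.03, -0.24 and -0.02 in the day 21 animals and 0.13, 0.01, -0.06 and 0.15 in day 7 animals 1, 3, 4 and 5. It averaged -0.04 ± 0.11 at day 21 (SD, n = 5, limma adjusted p = 0.947) and 0.06 ± 0.10 at day 7 (SD, n = 4, limma adjusted p = 0.898). Without replicate 4, the animal whose arrays correlated least, the Dpysl3 day 21 mean was 0.010. Its probe was dim, well above background in the red channel of 16 arrays and the green channel of 10, and with the scanner software's log ratio the day 21 mean was 0.28. Crmp1, not tested, had ratios of 0.01, 0.06, -0.11, -0.07 and 0.11 in the day 21 animals and 0.14, -0.08, -0.02, -0.29 and 0.05 in the day 7 animals. It averaged -0.00085 ± 0.091 at day 21 and -0.041 ± 0.16 at day 7 (SD, n = 5 each).

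Saturation and dye orientation moved together, mainly in the brightest probes of Gap43, Stmn1 and Dpysl2. These were saturated on 12, 8 and 9 arrays, Stmn3 on 1, and no other tested probe on any. Saturation therefore went largely with the probe. In 21 pairs of arrays of the tested probes where 1 or both arrays were saturated, the dye-swap ratio exceeded the forward ratio in 19, with a median difference of 0.42. In 97 pairs without saturation the dye-swap ratio was the higher in 40, with a median difference of -0.04. The pairs share probes and animals, so these are counts with no test, and the part of saturation in the ratios was not tested.

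**Figure D3:**
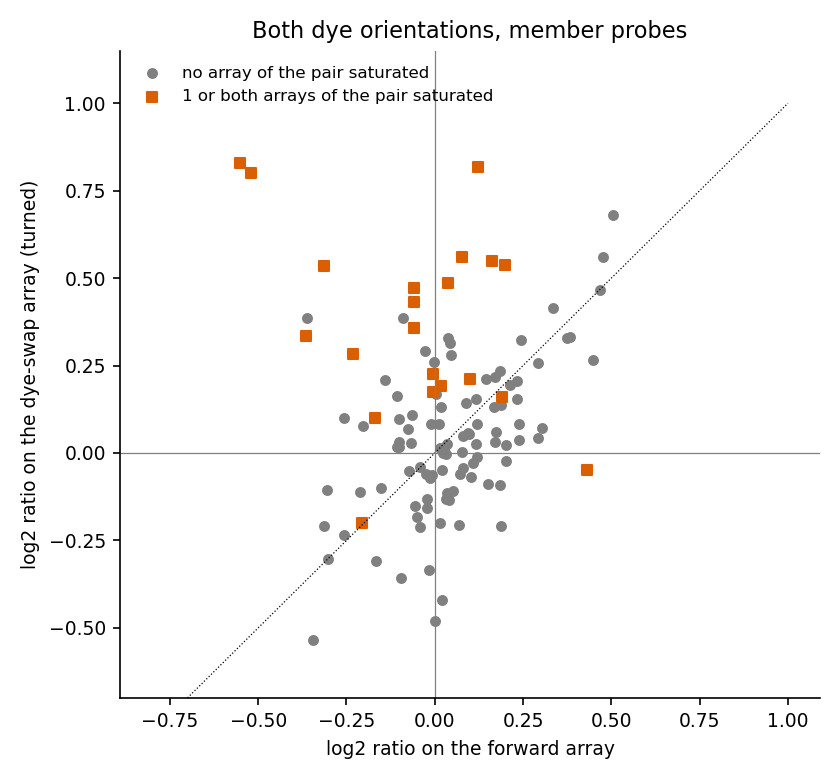
Log2 ratio on the dye-swap array, sign turned (vertical axis), against the forward array of the same animal (horizontal axis), for the 12 tested member probes. Squares (1 or both arrays saturated) lie above the dotted line of equality in 19 of 21 cases, and grey points lie above it in 40 of 97.

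No member's ratio passed the test of a difference between the cohorts. In the difference of day 21 minus day 7, 0 of 12 probes passed an adjusted p of 0.05 (limma; background 0% of 34225 probes) and 0 of 12 an unadjusted p of 0.05 (4.12% of all probes). The differences ran from -0.14 for Stmn3 to 0.17 for Marcks, with standard errors of 0.0610 to 0.137. The 95% interval of Marcks was -0.11 to 0.45 and that of Stmn1's dimmer probe -0.17 to 0.26. With 5 animals against 5, the smallest two-sided exact permutation p that can occur is 0.00794, and the values were 0.262 for Marcks and 0.151 for Stmn2. In no case did the animals of the cohorts separate, against 0.272% of all probes with every day 21 animal above and 0.523% with every day 21 animal below.

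Levels of a single channel were then compared between the cohorts, within 1 probe at a time, after loess and Aquantile normalization. No member passed an adjusted p of 0.05 in either cell type (limma; 0 of 12, background 0% of 34225 probes), and 2 of 12 in sprouting neurons (14.5% of all probes) and 1 of 12 in non-sprouting neurons (15.1%) passed an unadjusted p of 0.05. Those were Stmn2 and the dimmer Stmn1 probe in sprouting neurons, and the same Stmn1 probe in non-sprouting neurons. The median level difference of all probes was -0.06 in both cell types.

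The Stmn2 level in sprouting neurons was 13.45, 13.53, 13.70, 13.35 and 13.41 in the day 21 animals and 13.18, 12.71, 13.20, 13.27 and 13.05 in the day 7 animals. Every day 21 animal stood above every day 7 animal, as in 1% of all probes, and no other member did so. No member was below in this way in sprouting neurons, against 3.05% of all probes. The difference was 0.41 (SE 0.128, a 1.33-fold difference, limma adjusted p = 0.236, exact two-sided permutation p = 0.00794 over 10 animals, the smallest possible). Any full separation of the cohorts gives this permutation p, so it restates the separation, and it was not adjusted over probes. The non-sprouting Stmn2 level was 13.48, 13.63, 13.62, 13.38 and 13.06 at day 21, against 13.40, 12.70, 13.32, 13.31 and 13.09 at day 7. Those overlapped. The difference was 0.27 (SE 0.162, limma adjusted p = 0.426), and 0.15 without day 7 replicate 2. In the only scan-time group that holds animals of both days (1 animal of day 21 and 2 of day 7), the difference was 0.29 in sprouting and 0.28 in non-sprouting neurons. Without the arrays' saturated spots before normalization, none of which were of Stmn2, the difference was 0.20 in sprouting and 0.061 in non-sprouting neurons.

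Marcks went the other way. Its non-sprouting level was 8.975, 9.047, 9.004, 8.484 and 7.424 in the day 21 animals and 9.155, 9.119, 9.404, 9.247 and 9.080 in the day 7 animals. Every day 21 animal was below every day 7 animal, as in 3.68% of all probes, and no member was above in this way in non-sprouting neurons (1.19% of all probes). The difference was -0.61 (SE 0.283, limma adjusted p = 0.338, exact two-sided permutation p = 0.00794). The permutation p, again not adjusted, restates the separation. In sprouting neurons the level was 9.250, 9.162, 8.941, 8.635 and 8.016 at day 21, against 9.529, 9.041, 9.359, 9.200 and 9.098 at day 7, which overlapped (difference -0.44, SE 0.221, limma adjusted p = 0.370). Without day 21 replicate 5 the differences were -0.32 in non-sprouting and -0.25 in sprouting neurons. Replicates 4 and 5, the lowest of the day 21 animals in both cell types, shared a scan-time group. In replicate 4 the non-sprouting level was 9.158 on the forward array and 7.811 on the dye-swap array. On that swap array, 69.8% of probes were well above background in the red (non-sprouting) channel and 20.8% in the green (sprouting) channel. Within the shared scan-time group the Marcks difference was -0.19 in non-sprouting and 0.10 in sprouting neurons. The summed level of 7 astrocyte markers separated the same non-sprouting pools in the same direction, at 13.91 to 14.26 in the day 21 animals and 14.28 to 14.42 in the day 7 animals, and its part in the Marcks value was not tested.

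The dimmer Stmn1 probe was also lower at day 21. In sprouting neurons its level was 12.99, 12.80, 13.27, 13.41 and 13.21 at day 21, against 13.53, 13.54, 13.62, 13.15 and 13.68 at day 7, and the difference was -0.37 (SE 0.146, limma adjusted p = 0.301). In non-sprouting neurons the difference was -0.41 (SE 0.141, limma adjusted p = 0.228). Day 7 replicate 4 lay within the day 21 range in both. The brighter Stmn1 probe had differences of -0.06 in sprouting and 0.02 in non-sprouting neurons. At day 7 it was saturated on 2 of 10 arrays for the sprouting pool and on 6 for the non-sprouting pool. Its day 7 levels are thus bounded in part, and the probes cannot be compared. Within the shared scan-time group the dimmer probe had differences of -0.42 in sprouting and -0.34 in non-sprouting neurons.

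The cohorts overlapped in both cell types for every other member probe tested. The Gap43 level averaged 15.39 ± 0.16 at day 21 and 15.30 ± 0.44 at day 7 in sprouting neurons, with a difference of 0.10 (95% interval -0.33 to 0.53). At day 7 the Gap43 spot was saturated on 3 of 10 arrays for the sprouting pool and on 7 for the non-sprouting pool. Its day 7 levels are thus bounded in part by the scanner. Basp1, with no saturated spot, averaged 8.51 ± 0.49 at day 21 and 8.65 ± 0.38 at day 7 in sprouting neurons, a difference of -0.15 (95% interval -0.70 to 0.41), and -0.08 (95% interval -0.53 to 0.37) in non-sprouting neurons. Within the shared scan-time group the Basp1 differences were above 0, at 0.15 in sprouting and 0.18 in non-sprouting neurons. Sprr1a averaged 7.24 ± 0.12 at day 21 and 7.25 ± 0.15 at day 7 in sprouting neurons, a difference of -0.01 (95% interval -0.26 to 0.23). In non-sprouting neurons the Sprr1a difference was 0.12 (95% interval -0.16 to 0.40), against -0.13 within the shared scan-time group. Both Dpysl2 probes had higher means at day 21, by 0.15 (brighter) and 0.22 (dimmer) in sprouting and by 0.20 and 0.17 in non-sprouting neurons, with limma adjusted p of 0.340 to 0.560. Within the shared scan-time group these differences were 0.23 (brighter) and 0.062 (dimmer) in sprouting and 0.018 and -0.074 in non-sprouting neurons. By the dimmer probe, day 21 replicate 5 stood highest, at 7.60 in sprouting neurons against 6.95 to 7.24 in the other day 21 animals. In non-sprouting neurons it had 7.61 against 6.81 to 7.24.

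**Figure D4:**
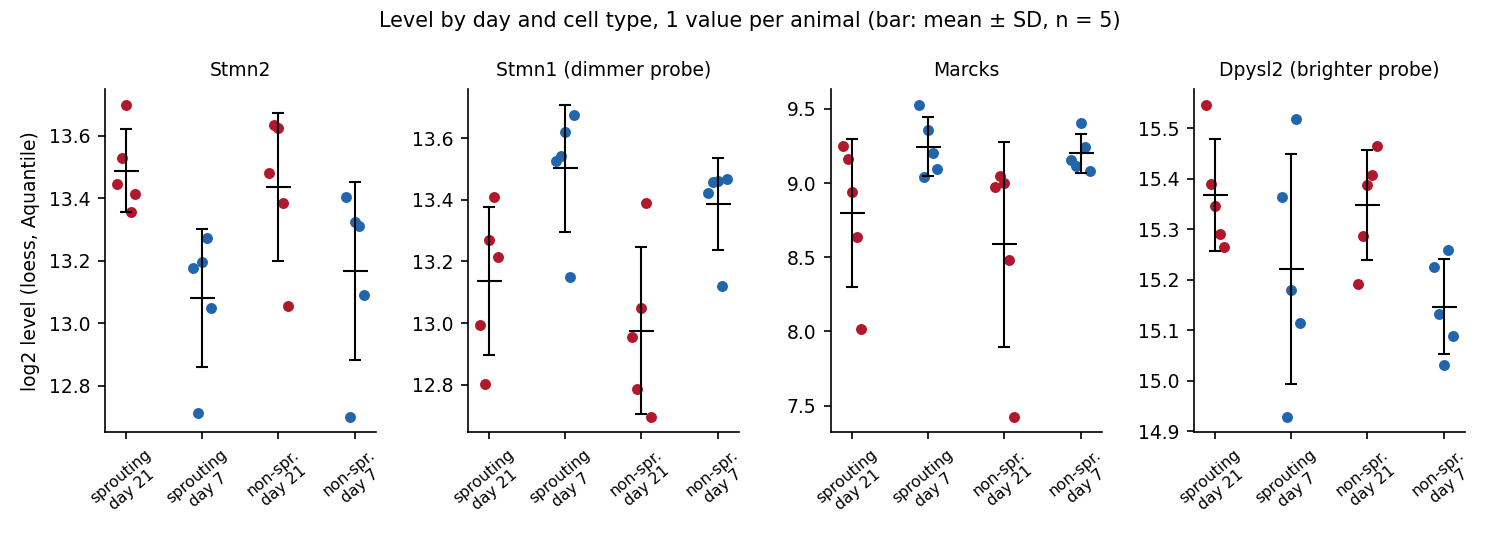
Normalized log2 level (vertical axis, a separate scale per panel) of 4 member probes in sprouting and non-sprouting neurons, day 21 left of day 7, 1 point per animal with mean and SD as bars. Sprouting Stmn2 and non-sprouting Marcks separate the cohorts, and the other groups shown overlap.

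Some markers of other cells differed in level between the cohorts, and none passed an adjusted p of 0.05 in limma. Over all probes, 41.2% were higher at day 21 in sprouting and 41.8% in non-sprouting neurons. Of 10 microglia and macrophage markers, 9 were lower at day 21 in sprouting neurons (median -0.86) and 8 in non-sprouting neurons (median -0.56). Their summed level ran from 12.48 to 12.97 at day 21 and 13.07 to 15.48 at day 7 in sprouting pools. In non-sprouting pools it ran from 12.54 to 13.06 at day 21 and 12.84 to 14.67 at day 7. Day 7 replicate 1 gave both day 7 maxima. Without that animal the highest day 7 sums were 13.35 in sprouting and 13.59 in non-sprouting pools. For the ratio, all 7 astrocyte markers were above 0 at day 21 (median 0.11) and 2 of 7 at day 7 (median -0.03), and in sprouting pools their summed level lay between 14.17 and 14.34 in the day 21 animals and between 14.24 and 14.60 in the day 7 animals. In non-sprouting neurons 6 of the 7 astrocyte markers were lower at day 21 (median -0.35). Of the 7 markers, 4 had an unadjusted p under 0.05 in limma, against 15.1% of all probes, and none passed the adjusted one. Oligodendrocyte markers had median level differences of -0.04 in sprouting and -0.07 in non-sprouting neurons, near the -0.06 of all probes. The neuronal markers had median ratios of -0.21 at day 21 and -0.03 at day 7. Of the 6 tested blood cell markers, 3 were above 0 at day 21 (median -0.0052) and all 6 at day 7 (median 0.33). Within single day 7 animals, replicate 1 had a median of 1.11 over these markers, and the remaining 4 lay between 0.0082 and 0.14. The part of these in the members' values was not tested. All named lists were run: interneuron markers had median ratios of -0.13 at day 21 and -0.04 at day 7. Oligodendrocyte markers had 0.0058 at day 21 and -0.063 at day 7, endothelial markers -0.0099 at day 21 and 0.0093 at day 7, and glutamatergic markers 0.0095 at day 21 and -0.026 at day 7.

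Other genes of the same pathways were taken from fixed lists, 1 probe per gene. In no list did a gene pass an adjusted p of 0.05 at day 21 or day 7 (limma). Of 8 relatives of the members, 4 were above 0 at day 21 and 3 at day 7. Stmn4, the further neuronal stathmin, averaged 0.13 ± 0.26 at day 21 and 0.35 ± 0.27 at day 7 (SD, n = 5 each, adjusted p = 0.924 and 0.756), and was above 0 in 3 and 4 animals. Pcp4, a small calmodulin-binding protein, averaged -0.18 ± 0.27 at day 21 and -0.26 ± 0.48 at day 7, and Gpm6b, a membrane glycoprotein of neurite growth, 0.18 ± 0.27 at day 21 and -0.08 ± 0.38 at day 7.

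Of 17 microtubule genes, 5 were above 0 at day 21 (median -0.03) and 10 at day 7 (median 0.02). The plus-end protein Mapre1 averaged 0.07 ± 0.08 at day 21 (SD, n = 4) and 0.20 ± 0.30 at day 7 (SD, n = 5), and the transport adaptor Fez1 -0.02 ± 0.22 and -0.14 ± 0.14. Clip1 and Clasp1, both plus-end proteins, averaged -0.24 ± 0.37 and -0.06 ± 0.08 at day 21, and 0.20 ± 0.30 and -0.02 ± 0.03 at day 7. Among 30 actin genes, 14 were above 0 at day 21 (median -0.001) and 21 at day 7 (median 0.06). Spire1, an actin nucleator, averaged -0.08 ± 0.31 at day 21 and 0.25 ± 0.24 at day 7. The Arp2/3 subunit Arpc3 averaged 0.02 ± 0.18 at day 21 and 0.15 ± 0.13 at day 7, and the actin-monomer binding Pfn2, saturated on 11 arrays, 0.25 ± 0.41 at day 21 and 0.18 ± 0.16 at day 7. Cyfip2, a regulator of the actin nucleation complex, averaged -0.14 ± 0.21 at day 21 (SD, n = 5) and -0.05 ± 0.12 at day 7 (SD, n = 4).

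Of 30 kinases and signalling partners, 15 were above 0 at day 21 (median 0.0031) and 17 at day 7 (median 0.04). Prkcd, a kinase C isoform, averaged -0.0036 ± 0.25 at day 21 and 0.40 ± 0.36 at day 7, when all 5 animals were above 0 (adjusted p = 0.756). Prkce, another isoform, averaged -0.21 ± 0.17 at day 21 (SD, n = 4) and -0.15 ± 0.11 at day 7 (SD, n = 5). It was above 0 in 1 of 4 animals at day 21 and 0 of 5 at day 7. Cdk5r1, the activator of Cdk5, averaged 0.05 ± 0.07 at day 21 and 0.10 ± 0.06 at day 7, and Fes, a tyrosine kinase, 0.08 ± 0.10 at day 21 and 0.04 ± 0.12 at day 7 (SD, n = 5 each).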

How the data were processed

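Spot intensities were read from the scanner files, in which Agilent Feature Extraction (version 9.1.3.1, per the file headers) had deposited mean and background signals and a log10 ratio for each of 43628 spots per array. In R 4.3.3 with the packages limma (3.58.1) and data.table (1.17.8), the mean signal was corrected with normexp (offset 50), and log2 ratios were normalized within each array by loess, with the 2256 control spots at weight 0. Spots that the file headers' columns mark as outliers were set to missing, and saturated spots were kept. Dye-swap ratios were turned, and both arrays of an animal were averaged, so that each animal gave 1 value, which needed both arrays. Single-channel levels were taken after loess and Aquantile. The filter left 34231 probes, of which 34225 could be fitted by limma (lmFit and eBayes) for the ratio on each day, its mean and its difference, and for the levels, with Benjamini-Hochberg adjustment at 0.05. The number of arrays limits the precision. The limma fit of the day 7 ratio was tested on simulated ratios of independent animals. The normalization, the levels and the permutations were not simulated.

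The authors' deposited table of log2 ratios entered as an alternative. Its medians ran from 0.00274 to 0.0152 per column, each column matched its own array best (correlation with the scanner-derived ratios 0.904 to 1.00), and its exact centring and scale are not given in the sources used here. A further 20 columns in that table were not used. The replicate numbers do not pair the cohorts, which are separate animals: the correlation of deviations ran from -0.20 to 0.04. Scan time, as the file headers give it, forms 5 groups, of which 1 holds animals of both days. In the others, scan time and day cannot be told apart.

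The text gives the brightest probe of each member in full and its other probes by their values, and of each other list the 2 genes of smallest unadjusted p on each day. Members and lists were chosen with earlier results of these data known.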

Additional observations from a re-analysis of the deposited data

Results flagged for a closer look

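Of 72 groups of 4 or 5 animals examined over the tested member probes (ratio and both levels, per day), 9 held an animal far from the others by Dixon's criterion, and chance alone marks about 1 in 20 groups. Day 21 replicate 4 stood apart in 3 of them, all for Dpysl3: its sprouting level was 7.32 against 6.54 to 6.70 in the others, its non-sprouting level 7.56 against 6.54 to 6.72, and its ratio -0.24 against -0.02 to 0.03. That animal also had the lowest agreement between its arrays, and its Dpysl3 probe is one of the dimmer members. Day 7 replicate 1 stood apart in 3: the Gap43 non-sprouting level was 14.62 against 15.18 to 15.34, the Marcks ratio 0.37 against -0.08 to 0.02, and the ratio of the dimmer Dpysl2 probe -0.16 against 0.01 to 0.07. By the dimmer Stmn1 probe, day 7 replicate 4 had a sprouting level of 13.15 against 13.53 to 13.68 and a non-sprouting level of 13.12 against 13.42 to 13.47. For the uncertain second Basp1 probe, day 7 replicate 5 had a non-sprouting level of 7.08 against 6.72 to 6.82.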

How the results depend on the processing

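By its brightest probe, no member passed an adjusted p of 0.05 in limma under any alternative run. The adjusted p of the other member probes was not read in those runs. The number of probes called over the whole table, 0 in every comparison as reported, was 1 at day 7 and 1 in the mean of both days without background correction, 1 in the mean with the authors' deposited table, and 1 in the mean with 1 probe per gene. With the 20 arrays entered singly it was 2 at day 21, 13 at day 7, 1 for the difference and 8 for the mean. Leaving out 1 animal gave 0 in every ratio comparison, 0 to 9 for the sprouting level (9 without day 21 replicate 1), and 0 to 108 for the non-sprouting level (108 without day 21 replicate 1, 1 without day 21 replicate 5). With the replicate block, which changed no other call, 0 probes were called for the difference (1237 at an unadjusted p under 0.05), 0 for the sprouting level (4224) and 0 for the non-sprouting level (4247). With scan time as a fixed block, 0 were called (375, 530 and 548 unadjusted, in the same order). The cause of these changes was not tested. Of 859 values of the members' brightest probes under alternatives, 848 moved by less than the spread between animals, and 61 changed sign, none of them called. Those that moved more were Dpysl3 at day 21 (0.28) and day 7 (0.19), its difference (0.09), and Crmp1 at day 21 (0.16) and its difference (0.27), all with the scanner software's log ratio, the Stmn2 sprouting level (0.20 without the saturated spots of the arrays, none of them its own), and, with scan time as a fixed block, the Dpysl2 difference of ratio (0.21) and the levels of Marcks (sprouting, 0.10), Stmn1 (non-sprouting, -0.07), Sprr1a (non-sprouting, -0.13) and Dpysl2 (non-sprouting, 0.02). Saturation limits Gap43, Stmn1's brighter probe and Dpysl2's brighter probe at day 7, where no animal had both arrays unsaturated for any of the 3. Dim signal limits Crmp1, Dpysl3 and the second Gap43 probe. Sprr1a, the dimmer Dpysl2 probe and the second Basp1 probe were also dim, well above background in green on 17, 15 and 16 of 20 arrays.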
